A study of Mus musculus with 3 samples.

Results

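The comparison described here sets brain vessels of Cx43-deleted mice against brain vessels of wild-type (WT) C57BL6 mice, in 2 of the 3 libraries of the series. Its members are the genes whose level reached 5 in either library, 13715 of 29787 genes with a count. In the Cx43-deleted group (hGFAP-Cre/Cx43fl/fl) the floxed connexin 43 gene, Gja1, is removed by Cre driven from the human GFAP promoter, which is active in astroglia. These mice have a mixed C57BL6-BALB/c background. The WT C57BL6 group carries no deletion and differs in genetic background as well. Genotype and background therefore cannot be told apart in this comparison. The third library, WT C57BL6-BALB/c, shares the background of the deleted mice and is given beside the others, so its ratios share libraries with the main comparison. All mice were 3 months old, and polyadenylated RNA was sequenced from isolated vessels. No source used here says whether a library came from 1 animal or from pooled animals. There was 1 library a group, so no test was possible and every difference is one between libraries.

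Levels are the summed transcript counts of a gene scaled to 1000000 reads of the library (CPM), and compare libraries, not genes. Where 3 values follow a gene, the first is the Cx43-deleted library, the second WT C57BL6 and the third WT C57BL6-BALB/c. Ratios are log2 of Cx43-deleted to WT C57BL6 with 0.5 added to each level, so that −1 is 2-fold lower in the Cx43-deleted library. Folds use reads on the main transcript of the gene, the most abundant one, with a 95% exact binomial interval in brackets. Where a library had 0 reads, only the lower limit of the interval is given, as at least. Intervals and limits cover counting error only. The library totals were 54975610 reads for Cx43-deleted, 24830975 for WT C57BL6 and 21170766 for WT C57BL6-BALB/c. All 30 endothelial markers listed reached the minimum level, and so did all 30 neuron markers and all 25 choroid plexus and ependyma markers, so transcripts of neurons and choroid plexus were present beside those of vessels.

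Brain capillaries are lined by endothelial cells whose tight junctions and transporters form the blood-brain barrier. Pericytes, smooth muscle and a basement membrane wrap them, and the endfeet of astrocytes cover their outer face. Connexin 43 forms gap junction channels between endfeet and is also made by other cells of vessels and meninges. Interferon-stimulated genes are a set of antiviral and antigen-presenting genes switched on together by interferon receptors through STAT and IRF factors.

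Over the 13715 genes, 391 (2.85%) were lower in the Cx43-deleted library by at least 2-fold and 178 (1.30%) were higher. Lower genes thus made up 68.7% of those past 2-fold. With scaling by library total alone that share was 78.8%, so the balance rests in part on the scaling. Without regard to size, 53.3% of genes were lower and 46.7% higher. The shares over all genes are the background for the list counts below. The median ratio was −0.037, and the middle 90% of genes ran from −0.84 to 0.702. In 79.8% of genes the libraries differed by less than 1.5-fold. Abundant genes leaned the other way from scarce ones. Among 825 genes with a mean level above 500 the median was 0.28, and among 1852 genes between 10 and 20 it was −0.145.

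**Figure D1:**
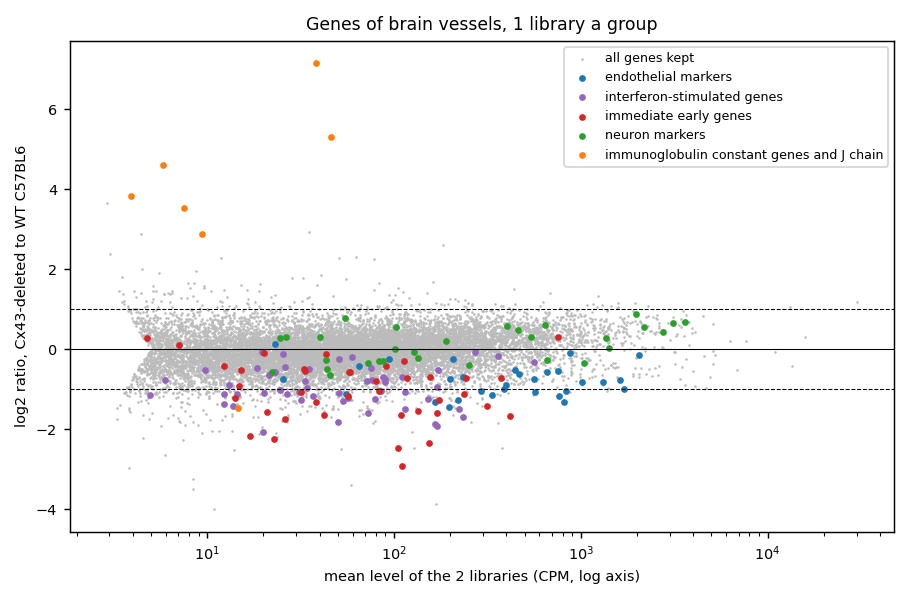
Each dot is a gene, with the mean level of the Cx43-deleted and WT C57BL6 libraries (CPM, log axis) on the horizontal axis and the log2 ratio of Cx43-deleted to WT C57BL6 on the vertical axis, dashed lines marking 2-fold. Interferon-stimulated genes all lie below 0, endothelial markers all but 1, and immunoglobulin genes reach 7.16 above it.

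Gja1 (ENSMUSG00000050953; GRCm38 chromosome 10, 56377330 to 56402513), the gene deleted in astroglia, checks the labels first. Its level was 47.98 against 202 and 202, from 2574 reads against 5138 and 4276. It was 4.21-fold lower (4.02 to 4.42) than in WT C57BL6, and both WT libraries lay at nearly the same level. Reads remained over nearly the whole transcript in the Cx43-deleted library, where 6 of its 3071 bases had no read, against 0 in WT C57BL6. In bulk RNA such as this, fewer cells of a type and less RNA per cell cannot be told apart.

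Immunoglobulin genes headed the list of higher genes. Ighg1, a constant gene of the IgG heavy chain, had 4100 reads against 1 and 10. Igkc, the constant gene of the kappa light chain, stood at 90.4 against 1.81 and 7.07 and was 49.9-fold higher (37.4 to 68.3). Ighg2b had 626 reads against 0 and 1 and was at least 80.1-fold higher. The Cx43-deleted library was the highest of the 3 for each of these. Ighg2c was at 14.3 against 0.787 and 6.55, with the mixed-background WT library between the others. Ighg3 was at 7.75 against 0.0787 and 0.0943, from 416 reads against 2 and 2. Jchain, which links the subunits of polymeric antibodies, was 9.15-fold higher (6.82 to 12.5). Ighm, the IgM constant gene, was the exception in the set at 7.51 against 21.8 and 28.2, 2.90-fold lower (2.55 to 3.31). The IgG constant genes are similar in sequence and differ between mouse strains, so the value of any single one is uncertain. General lymphocyte genes were mostly too scarce to compare. Of 20 T, NK and B cell markers measured only 5 were kept, Xbp1 and Ebf1 among them. All 5 were lower, with a median of −0.41. The members under the minimum level went both ways, with Cd8a at 0.447 against 0.157 and 0.141 and Trac at 0.541 against 1.02 and 0.707. Cd79a, of B cells, was at 0.746 against 0.787 and 0.566, and Mzb1, of plasma cells and marginal zone B cells, at 2.05 against 1.57 and 0.943.

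Genes known to respond to glucocorticoids were also among the 20 highest ratios. Fkbp5, a co-chaperone that restrains the glucocorticoid receptor, was at 315 against 51.4 and 97.9 and 5.91-fold higher (5.43 to 6.43). Zbtb16, a zinc finger repressor, was at 129 against 26.5 and 56.8 and 4.88-fold higher (4.51 to 5.29). Hif3a, a hypoxia-inducible factor subunit, was at 50.7 against 14.5 and 22.97. For these 3 genes the Cx43-deleted library was highest and WT C57BL6 lowest. Serpina3n, a serine protease inhibitor made by reactive astrocytes, was at 84.2 against 16.8 and 14.9 and 4.999-fold higher (4.53 to 5.53). Its cluster neighbour Serpina3i was at 5.39 against 0.630 and 0.519, and both are uncertain because the genes of the cluster can share reads.

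The other high ratios belonged to genes of unlike function. Pmaip1 (Noxa), which promotes cell death through mitochondria, stood at 62.6 against 7.83 and 3.82 and 7.99-fold higher (6.93 to 9.27). Prm1, a protamine of sperm chromatin, had 313 reads against 0 and 8, at least 39.9-fold higher than WT C57BL6. Pnma2, a capsid-like protein of neurons, was at 105 against 20.7 and 89.3 and 5.18-fold higher (4.70 to 5.72). Ubtd2, a ubiquitin domain protein, was at 20.02 against 3.74 and 4.53, and Cd300lf, an inhibitory receptor of myeloid cells, at 14.2 against 3.27 and 2.50. Sfmbt2, a Polycomb group protein, was at 64.4 against 17.3 and 27.4. Spocd1, which acts in germline DNA methylation, was at 9.06 against 2.05 and 7.40. Prss41, a serine protease, was at 7.48 against 1.496 and 6.74, and the zinc finger gene Zfp983 at 44.6 against 12.6 and 36.3. In Pnma2, Spocd1, Prss41 and Zfp983 the mixed-background WT library lay close to the Cx43-deleted one, and in Ubtd2 close to WT C57BL6. In Pmaip1 and Cd300lf it was the lowest of the 3.

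**Figure D2:**
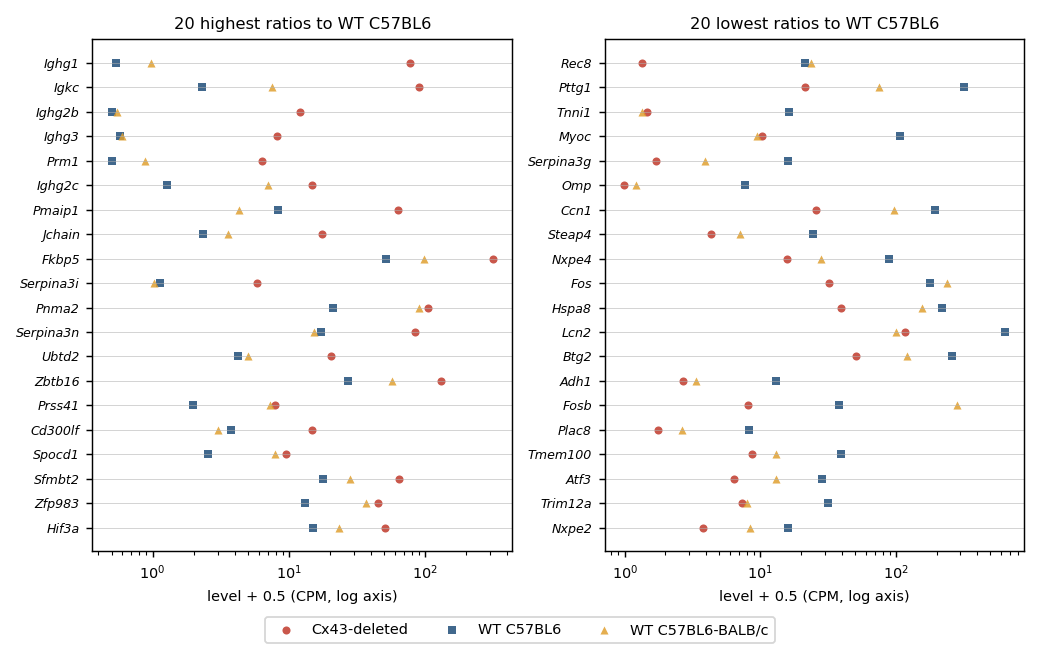
The 20 highest and the 20 lowest ratios among protein-coding and immunoglobulin constant genes, with the level plus 0.5 (CPM, log axis) in each of the 3 libraries. The circles of the Cx43-deleted library and the squares of WT C57BL6 are the values compared, and the triangles of WT C57BL6-BALB/c take no fixed place, for Fosb (284) above both and for Pmaip1 (3.82) below both.

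The 20 lowest ratios held cell division, immediate early, inflammatory and tissue-restricted genes. Rec8, a meiotic cohesin subunit, was at 0.839 against 20.9 and 23.3 and 27.4-fold lower (18.4 to 42.6). Pttg1, securin, which holds back the separation of sister chromatids, was at 20.99 against 316 and 74.98 and 13.4-fold lower (11.6 to 15.6). The WT libraries were close for Rec8 and far apart for Pttg1. Ccn1, a secreted matrix protein and early response gene, was at 25.3 against 195 and 95.8 and 7.71-fold lower (7.26 to 8.19). Fos, a subunit of the AP-1 factor, was at 31.5 against 178 and 239 and 6.02-fold lower (5.58 to 6.50). Fosb stood at 7.66 against 37.9 and 284, so WT C57BL6 was itself far below the other WT library. Btg2, an antiproliferative early response gene, was at 50.5 against 258 and 121, and Atf3, a stress-induced factor, at 5.89 against 28.2 and 12.5.

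Lcn2, lipocalin 2, an acute-phase protein that binds bacterial siderophores, was at 116 against 643 and 99.3. It was 5.52-fold lower (5.23 to 5.82). Steap4, a metalloreductase induced by inflammation, was at 3.82 against 24.1 and 6.60, and Serpina3g, of the Serpina3 cluster, at 1.21 against 15.6 and 3.40. Plac8, expressed by myeloid and lymphoid cells, was at 1.27 against 7.79 and 2.17. In these 4 genes WT C57BL6 stood above both other libraries. Trim12a, of a multicopy antiviral family, was at 6.80 against 31.3 and 7.55 and is uncertain for that reason.

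Tissue-restricted genes among the lowest were also highest in WT C57BL6. Myoc, myocilin, a secreted protein of the eye and meninges, was at 9.75 against 107 and 9.01 and 11.01-fold lower (10.02 to 12.1). Tnni1, slow skeletal troponin I, was at 0.951 against 15.7 and 0.849, and Omp, the olfactory marker protein, at 0.485 against 7.16 and 0.707. Tmem100, a BMP-dependent endothelial membrane protein, was at 8.15 against 38.9 and 12.5, and Adh1, an alcohol dehydrogenase that oxidises retinol, at 2.20 against 12.6 and 2.88. Nxpe4 and Nxpe2 of 1 gene cluster were at 15.4 against 88.6 and 27.6 for Nxpe4 and at 3.28 against 15.6 and 7.88 for Nxpe2. Hspa8, a constitutive heat shock protein, was at 38.9 against 219 and 155, whereas reads of its main transcript were 3.72-fold lower (3.44 to 4.02), and processed pseudogenes make it uncertain.

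The position of the mixed-background WT library sorts the largest ratios into kinds. The distance used here is log2 of the ratio of levels with nothing added, so that a gene with a level of 0 has none. Of the genes in which it lay within 0.32 (log2) of the Cx43-deleted level, those furthest below WT C57BL6 were Tnni1, Myoc, Lcn2, Trim12a, Zbp1, Asb4, Btnl9 and Ubb. Asb4, an ankyrin repeat protein of the vasculature, was at 7.79 against 31.4 and 8.35, and Btnl9, a butyrophilin-like membrane protein of endothelium, at 2.09 against 9.29 and 1.70. Ubb, a polyubiquitin gene, was at 3.47 against 14.3 and 3.87, with pseudogenes that make it uncertain. By this choice of genes the library that stands apart in the set is WT C57BL6. Those furthest above WT C57BL6 were Pnma2, Prss41, Spocd1, Zfp983, Col19a1, Zim1, Sbk3 and Catsperg1. Col19a1, a basement membrane collagen, was at 85.9 against 25.03 and 71.4, and Zim1, an imprinted zinc finger gene, at 29.2 against 9.01 and 24.6. Sbk3, a kinase, was at 18.4 against 6.26 and 21.1, and Catsperg1, a subunit of a sperm calcium channel, at 9.23 against 3.15 and 7.69.

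Where the mixed-background WT library lay within 0.32 (log2) of WT C57BL6, the Cx43-deleted library stands apart, again by the choice of genes. Besides Rec8 and Gja1, the lowest of these were Hjurp, Olfml2a, Egr1, Adam5, Chil5 and Stoml3. Hjurp, which loads the centromeric histone, was at 156 against 562 and 544 and 3.71-fold lower (3.57 to 3.86). Olfml2a, an olfactomedin-like secreted protein, was at 33.3 against 104 and 88.8, and Egr1, an immediate early factor, at 84.5 against 255 and 245. Stoml3, a stomatin-like protein of sensory neurons, was at 7.68 against 21.96 and 20.5. Adam5 and Chil5 were near the minimum level, at 1.73 against 5.86 and 4.999 for Adam5 and at 1.51 against 5.04 and 4.53 for Chil5. The highest were Ighg3, Serpina3i, Serpina3n, Ubtd2, Fmo2, Gdpd3, Arhgap4 and Cep162. Fmo2, a flavin monooxygenase, was at 126 against 39.7 and 44.3 and 3.06-fold higher (2.82 to 3.32). Gdpd3, a lysophospholipase D, was at 13.1 against 3.86 and 3.16, and Cep162, a centriole protein of cilia, at 116 against 41.2 and 49.7. Arhgap4, a GTPase-activating protein, was at 645 against 228 and 274, but 36.1% of its exon bases overlap other genes and it is uncertain.

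**Figure D3:**
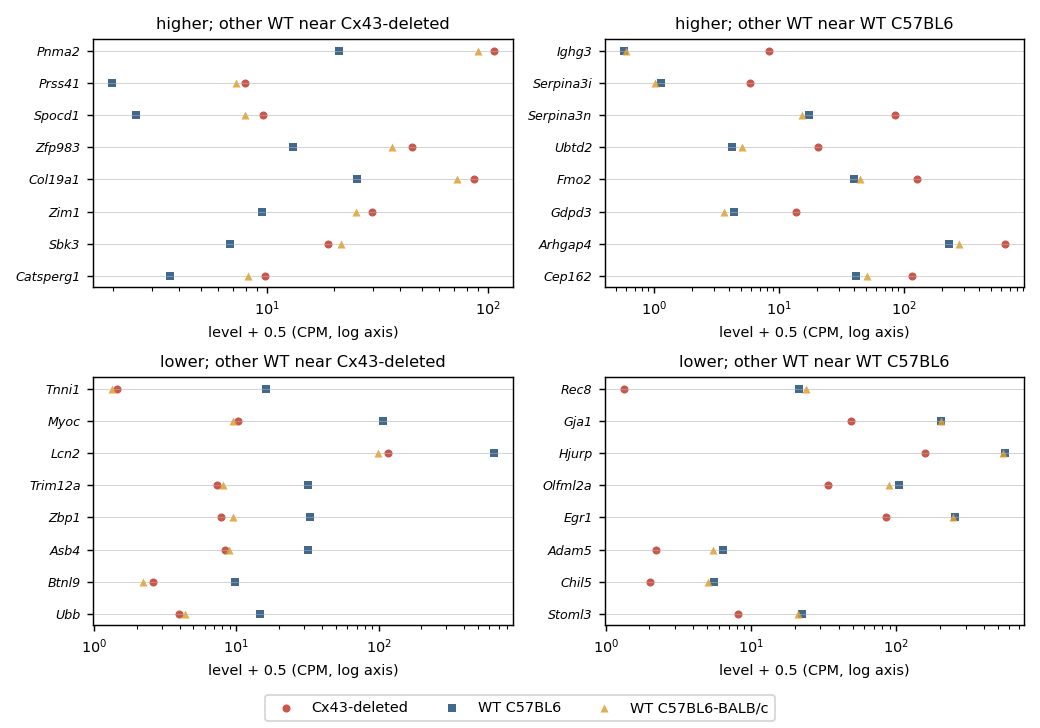
Levels plus 0.5 (CPM, log axis) of the 8 largest ratios each way when the WT C57BL6-BALB/c level, with nothing added, was within 0.32 (log2) of the Cx43-deleted library (left) or of WT C57BL6 (right). The triangle of the mixed-background WT library sits on the circle side at left and on the square side at right because it was chosen so, and the distance to the remaining library is the value shown.

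Interferon-stimulated genes were lower in the Cx43-deleted library without exception among those kept. Of 56 measured members 52 reached the minimum level, and all 52 were below WT C57BL6, 26 of them by 2-fold or more, where 53.3% of all genes were lower and 2.85% lower by 2-fold. Their median ratio was −0.99, against −0.037 over all genes. Their summed level was 3121 against 5633 and 3231. Set side by side, the list median was −0.17 for Cx43-deleted over WT C57BL6-BALB/c and −0.83 for the latter over WT C57BL6. The members under the minimum level were Ifi27l2a, Ifit3b, Oas1a and Oas3, with Ifit3b at 1.92 against 4.41 and 2.69.

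By role, the sensors and effectors of antiviral defence came first. Zbp1, a sensor of Z-form nucleic acids, was at 7.29 against 32.4 and 9.01 and 4.08-fold lower (3.39 to 4.92). Ifih1 (MDA5), a sensor of double-stranded RNA, was at 30.9 against 76.4 and 37.9. Rsad2 (viperin), which blocks viral RNA synthesis, was at 21.7 against 78.5 and 30.9 and 3.67-fold lower (3.30 to 4.08). Isg15, a ubiquitin-like modifier, was at 7.23 against 20.3 and 8.63, and Ifit1, which binds viral RNA caps, at 16.6 against 36.96 and 24.8. Ifitm3, which blocks the entry of viruses at endosomes, was at 59.4 against 169 and 78.8, and Bst2 (tetherin) at 22.3 against 51.1 and 24.1. All of these were highest in WT C57BL6 and lowest in the Cx43-deleted library. The GTPases of the Irg and Gbp families were lower too. Gbp3 was at 117 against 327 and 182 and 2.85-fold lower (2.68 to 3.03), and Ifi47 at 35.5 against 109 and 41.03. Irgm2 and Igtp stood at 70.99 against 268 and 107 for Irgm2 and at 70.7 against 260.4 and 99.6 for Igtp, and these neighbours had the same read count on their most abundant transcript in the Cx43-deleted library, so they cannot be separated.

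Among the transcription factors of the pathway, Irf7 was at 111 against 357 and 151 and 3.24-fold lower (2.98 to 3.52). Stat2 and Irf9, which act together downstream of the interferon receptor, were nearly level, at 263 against 278 and 241 for Stat2 and at 339 against 382 and 299 for Irf9. Herc6, an E3 ligase, was also near level at 19.1 against 19.996 and 24.1, with Gbp7 at 24.4 against 26.6 and 24.7. Oas2 and Samd9l had ratios of −0.21 and −0.25.

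Promoter windows of 300 bases were taken from RefSeq (GRCm38.p6), 250 before and 50 after each gene start. The interferon-stimulated response element (ISRE), searched as GAAANNGAAA on both strands with overlaps counted once per window, was in 18 of 43 windows of the 38 list members with an entry. That is 41.9%, against 3.44% of all 32851 windows. Of MHC class I genes, 4 of 20 windows held it. The 200 bases before the start are shown for 4 members of the list, to let the element be seen beside the values, with matches in capitals. They are Rsad2 (chr12:26456453-26456652, minus strand), Gbp3 (chr3:142559844-142560043, plus strand), Isg15 (chr4:156200819-156201018, minus strand) and Ifit1 (chr19:34640689-34640888, plus strand).
Rsad2: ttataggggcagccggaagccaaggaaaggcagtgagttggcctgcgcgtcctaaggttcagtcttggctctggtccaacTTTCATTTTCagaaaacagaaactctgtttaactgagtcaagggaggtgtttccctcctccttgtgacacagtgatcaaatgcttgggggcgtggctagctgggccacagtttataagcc
Gbp3: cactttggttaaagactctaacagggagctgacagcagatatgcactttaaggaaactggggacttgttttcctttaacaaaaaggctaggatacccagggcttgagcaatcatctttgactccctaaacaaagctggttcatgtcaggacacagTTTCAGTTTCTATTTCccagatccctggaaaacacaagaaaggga
Isg15: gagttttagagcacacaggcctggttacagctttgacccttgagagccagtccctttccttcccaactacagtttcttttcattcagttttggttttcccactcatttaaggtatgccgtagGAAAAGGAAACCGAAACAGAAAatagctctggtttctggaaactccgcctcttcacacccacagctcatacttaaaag
Ifit1: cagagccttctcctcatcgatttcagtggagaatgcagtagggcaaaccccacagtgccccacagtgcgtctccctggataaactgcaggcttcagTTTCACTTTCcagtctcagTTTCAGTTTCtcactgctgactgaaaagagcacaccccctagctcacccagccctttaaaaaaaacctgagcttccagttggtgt
In Isg15 and Gbp3 neighbouring matches overlap into 1 run, and in Ifit1 there are 2 separate matches. A match is only a match of letters. List members with the element included Stat2 at a ratio of −0.08 and Gbp7 at −0.12, which were nearly level.

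**Figure D4:**
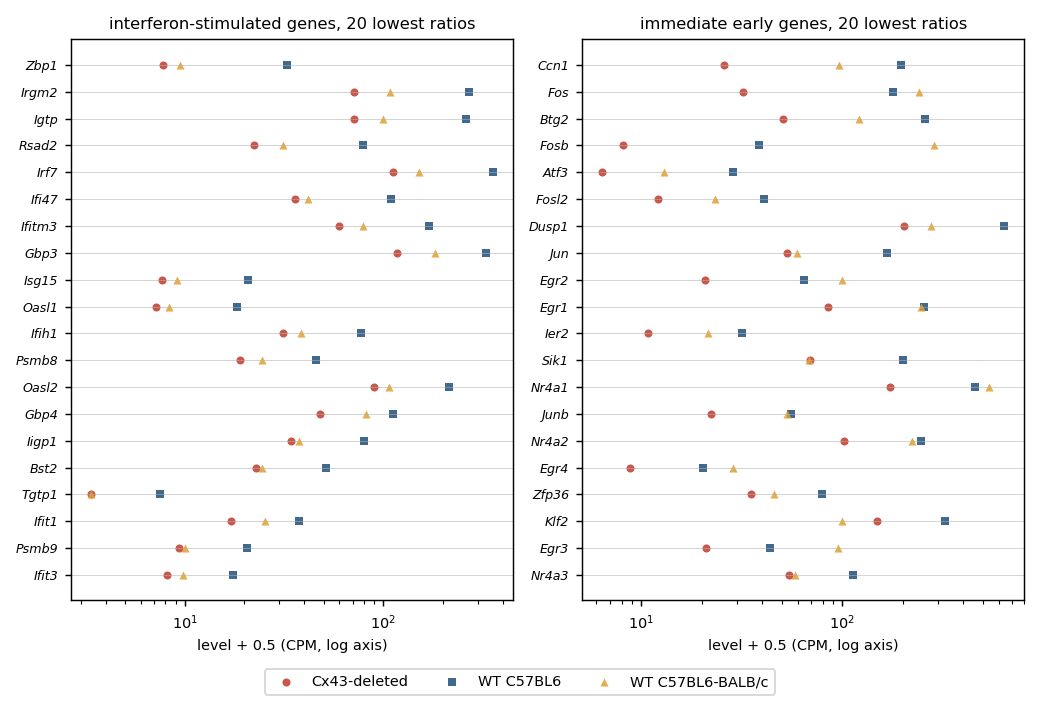
Levels plus 0.5 (CPM, log axis) of the 20 interferon-stimulated genes and the 20 immediate early genes with the lowest ratios, all lower by 2-fold or more, in the 3 libraries. At left the squares of WT C57BL6 are the highest mark for all 20 genes, and at right the triangles of WT C57BL6-BALB/c are spread from below the circles (Klf2) to beyond the WT C57BL6 squares.

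Antigen presentation by MHC class I was lower as well, in a list that shares 3 genes with the interferon list. Of 21 genes 19 were lower, 7 by 2-fold, with a median of −0.80, where 53.3% of all genes were lower and 2.85% by 2-fold. H2-T23, a non-classical class I heavy chain, was at 16.9 against 42.4 and 31.4. Psmb8 and Psmb9, subunits of the immunoproteasome, were at 18.4 against 45.5 and 23.9 for Psmb8 and at 8.91 against 19.996 and 9.53 for Psmb9, and Tap1, the peptide transporter, at 32.3 against 69.8 and 37.5. B2m, the light chain of class I molecules, was at 442 against 797 and 455 with a ratio of −0.85. Tapbp, H2-T22 and H2-M3 had ratios of −1.07, −1.01 and −1.01, the first pair with over 20% of exon bases in other genes. H2-Q6 went the other way at 19.2 against 14.4 and 10.8, and H2 genes vary between strains and resemble each other, so their values are uncertain. Of 9 class II genes, 7 were lower, with Cd40, a co-stimulatory receptor, at 6.49 against 17.5 and 11.8 and Cd74, the invariant chain, at 114 against 129 and 98.4. Ciita, the master regulator of class II genes, was higher at 8.30 against 5.83 and 8.02.

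Leukocyte adhesion molecules, which let white cells stop and cross the vessel wall, were lower in 20 of 23, 6 by 2-fold, with a median of −0.74. Over all genes 53.3% were lower and 2.85% by 2-fold. Icam2, a constitutive endothelial ligand of leukocyte integrins, was at 95.7 against 223 and 137 and 2.37-fold lower (2.23 to 2.52). Cd34 and Podxl, sialomucins of the endothelial surface, were at 259 against 556 and 331 for Cd34 and at 564 against 1191 and 824 for Podxl. Vcam1, a ligand of the integrin VLA-4, was at 137 against 262 and 181, and Icam1 at 32.3 against 42.98 and 41.2. Itgal and Itgb2, the LFA-1 subunits of leukocytes themselves, had ratios of −1.02 and −1.01. Alcam was higher at 80.6 against 58.9 and 84.7. Sele, E-selectin, stayed under the minimum level at 0.447 against 1.77 and 1.27.

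NF-kB genes were lower in 23 of 26 with a median of −0.44, where 53.3% of all genes were lower and 2.85% by 2-fold. Those past 2-fold were Bcl3, an atypical inhibitor of the IkB family, at 11.9 against 30.3 and 11.4, the receptors Tlr2 and Tlr4 at 3.36 against 7.64 and 6.32 for Tlr2 and at 4.98 against 10.7 and 8.72 for Tlr4, and the TNF receptor Tnfrsf1a at 86.7 against 175 and 106. The core subunits Nfkb1 and Rela were at ratios of −0.21 and −0.37, and the kinase gene Ikbkb at 0.38. Of 29 chemokines, cytokines and their receptors, 25 were lower, 6 by 2-fold, with a median of −0.69. Il33, an alarmin of glia, was at 19.5 against 42.4 and 32.3, and Il18 was higher at 28.04 against 17.04 and 13.6. The receptor genes Cxcr4 and Il6st, the latter gp130, were at 10.6 against 26.2 and 20.7 for Cxcr4 and at 159 against 327 and 203 for Il6st, and Il10rb at 115 against 233 and 156. Il2rg was at 25.7 against 69.1 and 32.9 with 30.5% of exon bases overlapped. Inducible mediators were under the minimum level, among them Il1b at 0.485 against 2.05 and 1.70, Ccl2 at 0.895 against 2.01 and 3.54 and Cxcl10 at 2.24 against 4.41 and 1.56. Complement genes were lower in 12 of 16 and 0 were past 2-fold, with C4b higher at 37.6 against 26.1 and 26.3 and C1qa lower at 39.6 against 62.1 and 34.9.

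Endothelial markers were lower nearly throughout. Of 30 members, 29 were below WT C57BL6 and 10 were lower by 2-fold, with a median of −0.78. Over all genes 53.3% were lower and 2.85% by 2-fold. Cldn5, the main tight junction claudin of brain endothelium, was at 466 against 1164 and 529 and 2.50-fold lower (2.46 to 2.54). Cd93, a surface lectin, was at 105 against 287 and 183 and Emcn, endomucin, at 94.5 against 236 and 105. Kdr and Tek, receptors for VEGF and angiopoietin, were at 129 against 309 and 185 for Kdr and at 467 against 1054 and 676 for Tek. Cdh5, VE-cadherin, was at 190.4 against 392 and 244, and Ly6a, Clec14a, Itm2a and Slco1c1 had ratios of −1.14, −1.11, −1.08 and −1.04. Rgcc was the member above WT C57BL6, at 23.99 against 22.04 and 16.9, and Vwf and Ramp2 were near level at −0.14 and −0.09, Ramp2 with 33.4% of exon bases in other genes. The summed level was 12989.8 against 21709.6 and 13705, so the mixed-background WT library lay by the Cx43-deleted one. The side-by-side medians were −0.18 for Cx43-deleted over WT C57BL6-BALB/c and −0.64 for the latter over WT C57BL6. The endothelial list moved with the interferon, MHC class I and adhesion lists, and its part in them was not tested.

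Growth factor genes of the vessel wall were lower in 18 of 20, 4 by 2-fold, with a median of −0.70. The shares over all genes were 53.3% and 2.85%. Vegfc, a ligand of the receptor Flt4, was at 10.8 against 39.2 and 16.2 and 3.61-fold lower (3.26 to 4.01), and the Notch ligand Dll4 of tip cells at 38.3 against 109 and 42.2. Vegfa, made mainly outside the endothelium, was higher at 781 against 546 and 598. In the Wnt and Notch list 25 of 29 were lower with a median of −0.45. The Notch target Heyl was at 24.7 against 69.7 and 44.4, and Fzd6, a Wnt receptor, at 88.2 against 181 and 112. Nrarp, a feedback inhibitor of Notch, was at 21.6 against 60.5 and 25.6, with 79.4% of exon bases overlapped. The Wnt co-receptor Lrp6 and the barrier receptor Fzd4 were level, at 189 against 181 and 186 for Lrp6 and at 51.8 against 51.7 and 36.97 for Fzd4, while the Wnt target Axin2 had a ratio of 0.33.

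Barrier transporters differed more among themselves. Of 32, 25 were lower, 5 by 2-fold, with a median of −0.43, where 53.3% of all genes were lower and 2.85% by 2-fold. Slc40a1, the iron exporter ferroportin, was at 33.8 against 121 and 52.2 and 3.60-fold lower (3.39 to 3.82). Slc38a5, a glutamine carrier, was at 99.8 against 315 and 163, Slc16a1, the lactate carrier MCT1, at 84.1 against 255 and 144, and Slc39a8, a zinc and manganese importer, at 82.9 against 177 and 97.4. On the other side were Slc2a1, the glucose carrier GLUT1, at 2828 against 2162 and 1653, and Lrp8, a lipoprotein receptor, at 880.4 against 606 and 765. The efflux pumps Abcb1a and Abcg2 were at 449 against 658 and 372 for Abcb1a and at 387 against 586 and 326 for Abcg2. Mfsd2a, which restrains transcytosis, was near level at 142 against 156 and 119. Of 25 junction genes 20 were lower with a median of −0.52. Besides Cldn5 and Cdh5, F11r (JAM-A) was past 2-fold at 69.8 against 141 and 97.9. Cgnl1, paracingulin, was at 582 against 1089 and 723 while Cgn, cingulin, was higher at 39.3 against 20.7 and 32.7. The scaffold Tjp1 (ZO-1) was at 808 against 984 and 824.

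Mural cell markers were mostly lower in both lists. Pericyte markers were lower in all 21, 4 by 2-fold, with a median of −0.82, where 53.3% of all genes were lower and 2.85% by 2-fold. Cox4i2, a cytochrome oxidase subunit of pericytes, was at 10.2 against 24.9 and 10.8, Foxf2, a factor of brain mural cells, at 44.3 against 91.5 and 54.5, and Art3 at 143 against 290.4 and 172. Vtn, vitronectin, was at 946 against 1861 and 1066 and Pdgfrb, the PDGF receptor that recruits pericytes, at 359 against 637 and 380.04. Smooth muscle markers were lower in 19 of 23, with a median of −0.45. Casq2, a calcium store protein, was the member past 2-fold, at 12.8 against 41.2 and 21.7. Acta2, smooth muscle actin, was at 420.03 against 573 and 818, and Myh11, its myosin, at 417 against 467 and 757. The smooth muscle list was highest in the mixed-background WT library, with summed levels of 11315 against 13126 and 17544. Its side-by-side medians were −0.82 for Cx43-deleted over WT C57BL6-BALB/c and 0.40 for the latter over WT C57BL6. For pericyte markers those were −0.08 and −0.63, so the order of the WT libraries was the reverse in these lists.

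Basement membrane genes were lower in 23 of 25 with a median of −0.39. Lama4, the endothelial laminin chain, was at 35.5 against 69.4 and 48.7, and Ecm2 at 38.8 against 78.96 and 49.04. Col4a1 and Col4a2, the paired chains of the type IV network, had ratios of opposite sign, −0.19 and 0.36. In fibroblast and meningeal markers 19 of 29 were lower, where 53.3% of all genes were. The small proteoglycans Lum and Dcn were at 8.85 against 21.1 and 16.3 for Lum and at 57.8 against 103 and 92.8 for Dcn. The type VI collagens of the same cells were higher, Col6a1 at 443 against 225 and 315, Col6a2 at 182 against 128 and 156 and Col6a3 at 79.6 against 43.8 and 55.4. Over 31 collagens of the list, which does not hold Col19a1, the median was −0.14, with Col11a1, a fibrillar collagen, highest at 155 against 53.8 and 110.1 and Col8a2, a short-chain collagen, lowest at 34.4 against 83.1 and 49.8. Col5a1 was higher at 177 against 99.9 and 138 while its partner Col5a2 was lower at 42.5 against 58.3 and 60.2.

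Astrocyte markers were lower in 25 of 29 with a median of −0.39, Gja1 included. Apart from Gja1, the member past 2-fold was Fabp7, a fatty acid binding protein of radial glia, at 4.57 against 11.2 and 10.5. Mlc1, an endfoot membrane protein, was at 166 against 304 and 243, and Glul, glutamine synthetase, at 514 against 889 and 607. Aqp4, the water channel of endfeet, was at 11.8 against 14.2 and 19.8 and Gfap, the intermediate filament of astrocytes, at 265 against 309 and 299.6. Fgfr3 and Bcan were higher at 464 against 339 and 365 for Fgfr3 and at 344 against 272 and 291 for Bcan. In the endfoot and dystroglycan list 13 of 21 were lower, near the 53.3% of all genes, with a median of −0.26. Kcnj10, the potassium channel Kir4.1, was at 117 against 147 and 148, and Utrn, utrophin, at 323 against 506 and 393. Dtna, the astrocyte dystrobrevin, and Sgcb, a sarcoglycan, were higher at 182 against 129 and 170.4 for Dtna and at 36.7 against 25.3 and 34.2 for Sgcb.

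Of 11 connexins and pannexins 9 were lower, with a median of −0.46. Gjb6, connexin 30, the partner of connexin 43 in astrocytes, was level at 119 against 114 and 106. The endothelial connexins Gja5 and Gja4 were at 16.7 against 33.9 and 35.3 for Gja5 and at 59.3 against 93.2 and 69.4 for Gja4, and Gjb2, connexin 26 of the meninges, at 30.1 against 49.6 and 38.9. Panx1, a pannexin channel, was at 8.74 against 11.5 and 9.48. Of the genes near Gja1 on chromosome 10, 12 of 16 were lower, where 53.3% of all genes were, with a median of −0.14. The member past 2-fold was Fabp7, given above as an astrocyte marker, and its neighbour Smpdl3a was at 62.3 against 121 and 70.6. Oligodendrocyte markers were lower in 22 of 25, with Opalin, a myelin membrane protein, at 3.62 against 11.6 and 6.84.

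Neuron markers were spread over both directions. Of 30, 18 were higher and 12 lower, where 46.7% of all genes were higher, and 0 were past 2-fold, with a median of 0.24. Camk2a, a kinase of excitatory synapses, was at 2567 against 1404 and 2280.4 and Gad2, an enzyme of GABA synthesis, at 68.9 against 39.9 and 71.4. Grin1, the shared NMDA receptor subunit, was at 4439.6 against 2749 and 4242, and Snap25, a vesicle fusion protein, at 776 against 513 and 782. The lowest members were Nefl, Tubb3 and Vsnl1, with ratios of −0.65, −0.56 and −0.50, where 32.8% of the exon bases of Nefl overlap other genes. The summed level was 24816 against 18392 and 24430.4, close in both mixed-background libraries. Meg3, an imprinted long non-coding RNA abundant in neurons, was at 41834 against 18326 and 34444 and 2.17-fold higher (2.17 to 2.18), and was chosen after its values were seen, as was Snhg11, a neuronal transcript, at 17716 against 8559 and 15292. Over 444 long non-coding RNAs the median ratio was 0.201. By 2-fold, 19 (4.28%) were higher and 6 (1.35%) lower, against 1.30% and 2.85% of all genes. In protein-coding genes the ratio differed with the length of the transcript. Among 670 genes with a most abundant transcript of 500 to 1000 bases the median was −0.34, and among 1387 genes above 6000 bases it was 0.154. The part of transcript length in the differences of the lists was not tested.

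Transcripts of mitochondria were lower. Of the 17 mitochondrially encoded genes kept, the median ratio was −0.75. These 17 include 8 tRNA and 2 rRNA genes, so that median is not one of respiratory chain messages alone. The 4 that were lower by 2-fold were all tRNA genes. mt-Co1, a cytochrome oxidase subunit, was at 967 against 1916 and 1122, and mt-Cytb, cytochrome b, at 3741 against 6063 and 4573. Respiratory chain genes of the nucleus were lower in 50 of 59 with a median of −0.40 and 0 past 2-fold. Among all genes kept, 53.3% were lower and 2.85% by 2-fold. Ndufs6 and Ndufa2 of complex I were at 8.99 against 17.7 and 12.5 for Ndufs6 and at 15.9 against 29.2 and 19.004 for Ndufa2. Cytosolic ribosomal proteins were near level, with a median of −0.07. Cholesterol synthesis genes were lower in 19 of 21 with a median of −0.60. Nsdhl and Sc5d, late enzymes of the pathway, were at 15.2 against 39.2 and 34.8 for Nsdhl and at 18.6 against 39.6 and 28.4 for Sc5d.

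Immediate early genes, the first genes that cells switch on after a stimulus, were lower in 36 of 39, 20 by 2-fold or more, with a median of −1.05. Over all genes 53.3% were lower and 2.85% by 2-fold. Beyond Ccn1, Fos, Btg2, Fosb and Atf3, already given, the AP-1 genes Jun and Fosl2 were at 52.5 against 166 and 58.99 for Jun and at 11.7 against 40.3 and 22.7 for Fosl2, and Junb at 21.8 against 55.03 and 52.7. Egr2 was at 20.2 against 64.4 and 98.8 and 3.20-fold lower (2.76 to 3.71). The orphan nuclear receptors Nr4a1, Nr4a2 and Nr4a3 had ratios of −1.41, −1.27 and −1.05, and Egr3 and Egr4 of −1.06 and −1.21. Dusp1, a MAP kinase phosphatase, was at 202 against 639 and 277 and 3.18-fold lower (3.07 to 3.30). Sik1, a salt-inducible kinase, was at 68.4 against 199.8 and 67.8, Klf2, a flow-induced endothelial factor, at 148 against 324 and 98.8, and Ier2 at 10.3 against 31.3 and 21.1. Zfp36, which destabilises cytokine mRNAs, was at 34.8 against 79.1 and 45.3. The members above WT C57BL6 were Myc, Per1 and Fosl1, with ratios of 0.29, 0.31 and 0.10, the last with 57.2% of exon bases in other genes. The mixed-background WT library had no fixed place, below the Cx43-deleted one for Klf2 and above WT C57BL6 for Fos and Fosb. Its side-by-side medians were −0.46 for Cx43-deleted over WT C57BL6-BALB/c and −0.28 for the latter over WT C57BL6.

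Promoters of the immediate early list were searched for a cyclic AMP response element (CRE, TGACGTCA, its own reverse complement) and the CArG box bound by serum response factor, on both strands. The CRE was in 3 of 36 windows of 29 genes, 8.33% against 1.79% of all windows, and the CArG box in 6, 16.7% against 1.63%, 4 of the 6 belonging to Egr2. Some Egr2 windows overlap and hold the same site. Counted by gene, the CArG box was in 3 of 29, 10.3% against 1.81%. Btg2 (chr1:134079156-134079355, minus strand) shows the CRE and Egr2 (chr10:67537366-67537565, plus strand) the CArG box in capitals, in the 200 bases before the start.
Btg2: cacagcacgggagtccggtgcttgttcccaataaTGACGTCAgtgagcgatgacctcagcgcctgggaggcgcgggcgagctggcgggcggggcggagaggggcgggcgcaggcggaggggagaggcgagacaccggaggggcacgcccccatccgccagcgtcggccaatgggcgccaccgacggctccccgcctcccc
Egr2: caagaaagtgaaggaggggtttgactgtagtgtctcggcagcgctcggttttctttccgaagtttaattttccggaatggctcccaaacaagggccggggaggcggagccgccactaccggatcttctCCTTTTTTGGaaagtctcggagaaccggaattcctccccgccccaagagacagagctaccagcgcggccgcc
Both genes were past 2-fold, and Maff, whose window also held the CRE, was near level at 19.4 against 20.9 and 12.7.

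Genes induced by glucocorticoids split, with a median of −0.09. Of 24, 6 were higher by 2-fold and 2 lower by 2-fold, the latter Lcn2 and Dusp1. Over all genes those shares were 1.30% and 2.85%. Besides Fkbp5, Zbtb16 and Hif3a, the higher ones were Plin4, a lipid droplet protein, at 58.4 against 18.7 and 32.6 and 3.12-fold higher (2.84 to 3.45), Map3k6, a stress kinase, at 146 against 57.2 and 57.8, and Sult1a1, a sulfotransferase, at 141 against 63.8 and 60.9. Other common targets were near level, among them Tsc22d3 (GILZ) at 558 against 622 and 382 and Sgk1 at 773 against 851 and 556. Pdk4, a pyruvate dehydrogenase kinase, was at 21.2 against 36.2 and 16.1. The side-by-side medians were 0.56 for Cx43-deleted over WT C57BL6-BALB/c and −0.47 for the latter over WT C57BL6.

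Circadian genes had the highest list median after immunoglobulins, at 0.31, with 14 of 21 higher and 3 past 2-fold. Over all genes 46.7% were higher and 1.30% by 2-fold. Per2, a repressor of the clock, was at 219 against 82.1 and 172 and 2.67-fold higher (2.54 to 2.79). Ciart, another repressor, was at 16.5 against 6.89 and 14.9 and 2.40-fold higher (2.03 to 2.83), and Dbp, an output factor, at 102 against 50.7 and 131. Per3 was at 547 against 314 and 626. In the opposite limb, Arntl (BMAL1), the activator, was at 41.8 against 59.7 and 46.2, and Nfil3, which opposes Dbp, at 12.4 against 20.7 and 14.4. In Per2, Ciart and Dbp the mixed-background WT library was on the side of the Cx43-deleted one. No source used here gives the time of day of tissue collection. The E-box CACGTG, its own reverse complement and the site of BMAL1 and CLOCK, was in 6 of 27 windows of 18 clock genes, 22.2% against 7.15% of all windows. The window of Ciart (chr3:95882229-95882428, minus strand) held it in 3 places, capitals in the 200 bases before the start.
Ciart: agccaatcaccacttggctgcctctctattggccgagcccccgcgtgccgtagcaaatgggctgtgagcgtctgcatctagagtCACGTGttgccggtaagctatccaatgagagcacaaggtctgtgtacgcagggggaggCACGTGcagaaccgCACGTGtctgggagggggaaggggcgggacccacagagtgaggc
Tef, Per1, Bhlhe41 and Cry1 also had a match, at ratios of 0.57, 0.31, 0.39 and −0.08.

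Heat shock genes were lower in 22 of 27 with a median of −0.36. Hspb1, a small heat shock protein of vessels, was past 2-fold at 5.98 against 14.5 and 9.01. In the cell cycle list 15 of 21 were lower, 5 by 2-fold, with a median of −0.35. Over all genes 53.3% were lower and 2.85% by 2-fold. Beside Rec8, Pttg1 and Hjurp, Ccnd1, cyclin D1, with 23.4% of exon bases overlapped, was at 47.8 against 101 and 64.5 and Mcm6, a replication helicase subunit, at 8.87 against 18.9 and 4.34. Bub1b, a spindle checkpoint kinase, and Birc5, survivin, were higher at 32.96 against 16.1 and 0.943 for Bub1b and at 5.54 against 2.48 and 3.30 for Birc5. The proliferation markers Mki67 and Plk1 were at ratios of 0.42 and 0.54.

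Markers of immune and blood cells were mostly lower. Of 23 microglia markers 22 were lower with a median of −0.58, where 53.3% of all genes were lower and 46.7% higher. Fcrls and Laptm5 were past 2-fold at 12.8 against 36.4 and 19.5 for Fcrls and at 54.9 against 123 and 81.1 for Laptm5, with Tyrobp, an adaptor of myeloid receptors, at 4.47 against 10.3 and 6.13. Tmem119 and Sall1, which mark microglia most specifically, were near level at −0.16 and −0.10. Of perivascular macrophage markers, 5 of 15 were higher. Cd163, which takes up haemoglobin, was at 32.4 against 16.6 and 16.9 and Clec10a, a lectin, at 28.1 against 16.2 and 19.4, while Ms4a7 and Pf4 were lower at 5.70 against 10.3 and 4.57 for Ms4a7 and at 3.32 against 5.86 and 3.73 for Pf4. Of 19 neutrophil and monocyte markers only 7 reached the minimum level. S100a8 and S100a9, the calprotectin subunits of neutrophils, were at 2.16 against 5.47 and 2.64 for S100a8 and at 8.35 against 18.2 and 10.4 for S100a9, and Lyz2, lysozyme of myeloid cells, at 15.1 against 36.9 and 19.9. Mmp9 was higher at 9.84 against 5.63 and 6.37. Red blood cell genes were lower in all 6, the beta globin genes Hbb-bs and Hbb-bt at 231 against 509 and 292 for Hbb-bs and at 19.3 against 52.5 and 23.7 for Hbb-bt. Globin genes resemble each other and vary between strains, so these are uncertain.

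Markers of other tissues in the preparation differed too. Choroid plexus and ependyma markers were lower in all 25, 3 by 2-fold, with a median of −0.83. Among all genes kept, 53.3% were lower and 2.85% by 2-fold. The summed level of these markers was 5564 against 10359 and 4532. Ttr, the thyroid hormone carrier of the choroid plexus, was at 3194 against 6204 and 2311 and Kl, klotho, at 96.1 against 182 and 75.4. Tmem212 and Dynlrb2, of ciliated ependyma, were at 19.1 against 44.4 and 33.1 for Tmem212 and at 6.34 against 13.6 and 10.1 for Dynlrb2. Of the pituitary genes 3 of 16 were kept. Pomc was at 2.14 against 5.16 and 9.29, and Gh and Prl, at 0.0373 against 0.276 and 43.997 for Gh and at 0.0373 against 0 and 64.5 for Prl, were nearly without reads in the 2 libraries compared. Of genes on the Y chromosome, Eif2s3y had a ratio of 0.64, Kdm5d of 0.47, Ddx3y of 0.21 and Uty of 0.17, and Xist was at 1.12 against 1.81 and 1.08.

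**Figure D5:**
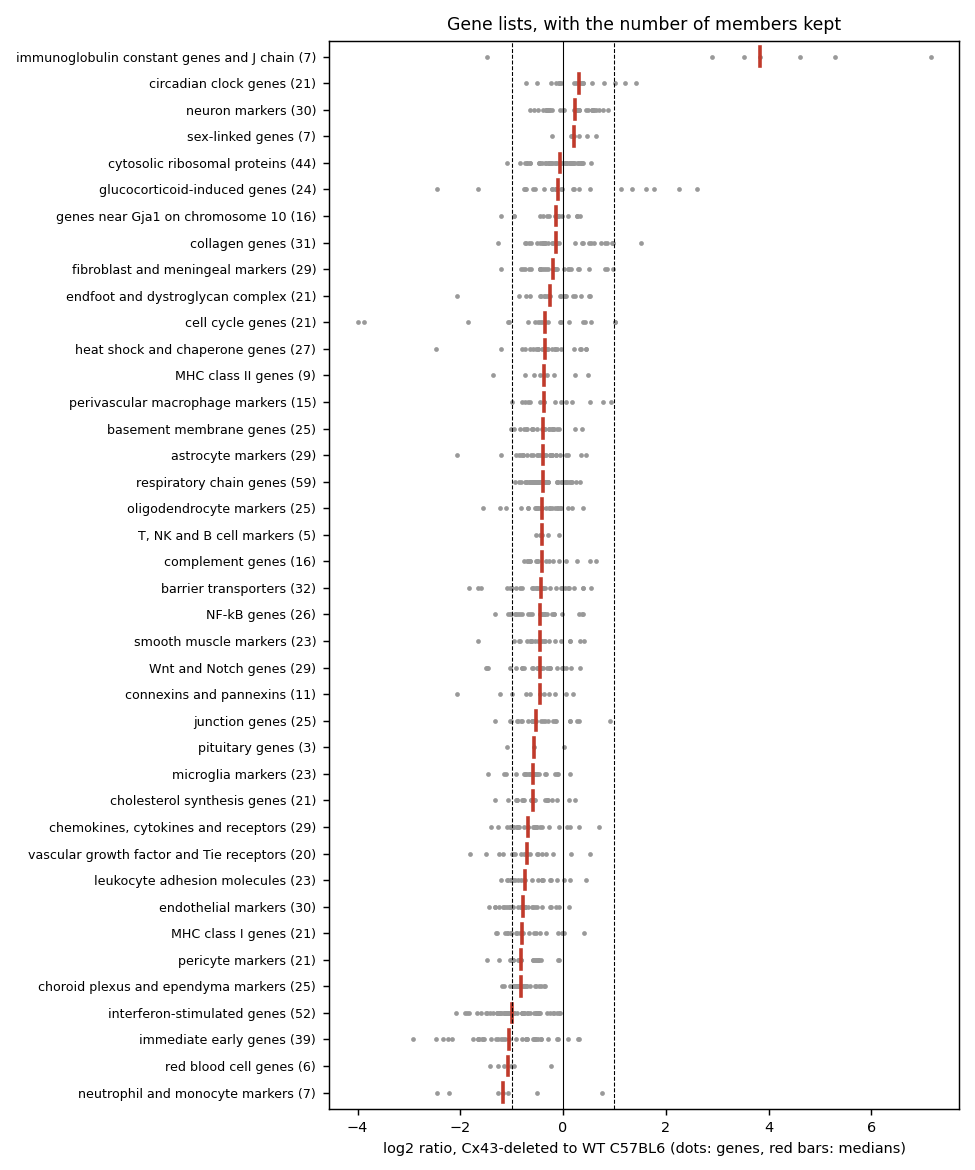
Log2 ratio of Cx43-deleted to WT C57BL6 for the members of 40 gene lists that reached the minimum level (dots), with the list median (red bar) and the number of members, ordered by median. The lists of neutrophil and monocyte, red blood cell, immediate early and interferon-stimulated genes have medians of −1.17, −1.08, −1.05 and −0.99, and 4 lists have a median above 0.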

How the data were processed

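RNA of brain vessels was sequenced in 3 libraries, 1 a group, and groups came from the labels. Per the file headers, the authors deposited for each of 82813 Ensembl transcripts a raw count and a ratio, the count as a fraction of 1 library total. Dividing the count by that deposited fraction gave the totals. The deposited tables also give transcript length and the bases without a read. Counts sum to 2.55, 2.45 and 2.53 times the totals in Cx43-deleted, WT C57BL6 and WT C57BL6-BALB/c, so reads were counted on more than 1 transcript. Reads of overlapping genes are shared, since the TruSeq v2 kit, per the labels' protocols, keeps no strand. The submitters' processing notes name CASAVA 1.8.2, Bowtie and mm10, and no source used here names the counting program. Deposited positions reach 197054592 on chromosome 1, past the last gene end in GRCm38 at 195323493, and were not used.

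Transcripts were matched by identifier to GENCODE M21 (GRCm38): 69375 of 82813 (83.8%), of which 213 on another chromosome were left out. The genes used carried 83.4%, 84.0% and 83.4% of the counts. Gene sums were scaled to CPM with library totals and TMM factors of 0.976, 1.02 and 1.00 from edgeR 4.0.16 (R 4.3.3). A level of 5 in either library and a pseudocount of 0.5 were used, with Python 3.11.15, pandas 2.3.3 and scipy 1.17.1. The steps were tested on simulated counts. With 1 library a group no p-value was computed; a gene is called when the libraries differ by 2-fold. Alternatives were other scalings, minimum levels and pseudocounts, and the most abundant transcript.

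Named were Gja1, the 20 highest and 20 lowest ratios among protein-coding and immunoglobulin constant genes without predicted, ribosomal, histone and olfactory genes, the 8 largest each way with the level of the third library, nothing added, within 0.32 (log2) of either side, and in lists up to 4 members furthest each way and those past 2-fold; others beside them were taken for their role. The members and the 40 lists were chosen with earlier results of these data known. List members without a count in the tables were not analysed here. Some list members are counted in their lists and not reported here by name.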

Additional observations from a re-analysis of the deposited data

How the results depend on the processing

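Without a minimum level, 278 genes were higher by 2-fold, against 178 with a level of 5, because more genes were counted. The count of lower genes stayed within 1.5 times under the 8 alternatives, as did the higher count under the other 7. Of 200 recomputed list medians 199 kept their direction. The exception was the pituitary list, at 0.119 with a minimum level of 1, where more members enter. Of 178 named genes past 2-fold, 11 fell short of it with median-of-ratios size factors, 10 with the most abundant transcript, 3 with scaling by library total and 0 with a pseudocount of 0.1. No paired analysis was possible because each group has 1 library, and no replicate could be left out. Of 333 named genes, 7 that were near 0 changed sign with scaling by library total, Fzd4, Lrp6 and Gjb6 among them, and 2 with the most abundant transcript. Intervals cover counting error, and the spread between animals cannot be had from these libraries.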

Other observations

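Genes past 2-fold lay side by side in several places of the genome, a pattern looked for after the values were seen. With gaps of at most 200000 bases, 7 runs of 3 or more higher genes and 9 runs of 3 or more lower genes were found (GENCODE M21, GRCm38). The lower run with the most genes held Irgm1, Tgtp1, Tgtp2, Ifi47 and Btnl9 on chromosome 11 (48861968 to 49187159). Tgtp2, an interferon-induced GTPase, was at 1.81 against 5.86 and 2.97 and its near copy Tgtp1 at 2.89 against 7.05 and 2.88. On chromosome 3 (90514435 to 90695721) the S100 genes S100a13, S100a4, S100a8 and S100a9 were lower together, with S100a4, a calcium-binding protein of motile cells, at 2.31 against 5.43 and 3.68 and 51.7% of its exon bases in other genes. On chromosome 7 (104244457 to 104507849) the antiviral genes Trim34a, Trim12a and Trim30d were lower, with Trim30d at 3.73 against 8.34 and 3.44. Members of these families resemble each other, so reads may be shared within a run.

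Among higher runs, Rdh13, Tmem86b, Shisa7 and Sbk3 lay on chromosome 7 (4424770 to 4971168). Rdh13, a retinol dehydrogenase of mitochondria, was at 247 against 76.9 and 59.5, with both WT libraries low. Sbk3 in the same run had both mixed-background libraries high. Serpina3h, Serpina3i and Serpina3n formed a run on chromosome 12 (104247905 to 104414329), with Serpina3h at 8.16 against 0.669 and 0.755. The Meg3 locus on chromosome 12 (109541001 to 109571726) held Meg3 and the microRNA host entries Mir1906-1 and Mir770, whose counts can be reads of Meg3 itself.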
